A study of Mus musculus with 18 samples.

Results

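Clusters of distal histone H3 acetylation were defined in mouse embryonic fibroblasts (MEFs) as stretches of the genome in which several acetylated peaks lie close together and away from H3K4me3, the mark of active promoters. A peak of the control list counted as distal when more than 5000 bases separated it from every H3K4me3 peak of either condition. Distal peaks with gaps of up to 12.5 kb were joined, and joined groups of 3 or more peaks that spanned at least 20000 bases were taken as clusters. On chromosomes 1 to 19, 21404 of the 47904 control H3Ac peaks were distal and fell into 13293 joined groups. Of these groups 686 were clusters, holding 3976 peaks, which is 18.6% of the distal peaks and 23.5% of the distal acetylated length. A further 9217 distal peaks stood alone, and 3390 joined groups had several peaks but did not reach the size of a cluster.

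The cells came from mice of a mixed B6;129 background with a conditional allele of Rb, the retinoblastoma tumour suppressor, which holds back entry into the cell cycle. Control cells were infected with an adenovirus carrying GFP, which leaves the allele in place. The other cells were infected with an adenovirus carrying Cre recombinase, which deletes it. Both groups carried the conditional allele, neither received the reprogramming construct ("no 4F"), and both were expanded for at most 3 passages. Loss of Rb protein or RNA was not checked in the lists used here. Chromatin was immunoprecipitated with antibodies against pan-acetylated H3 (H3Ac), H3K4me3, H3K27me3 and H3K9me3. There was 1 library for each of the 4 marks in either condition. The differences given below between GFP and Cre therefore have no replicates behind them, and no p-value is given. Intervals in brackets are exact 95% binomial intervals. They allow for counting error alone, and since peaks of 1 cluster are neighbours the true error is larger.

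Enhancers are regulatory sequences that raise transcription from promoters at a distance, and the histones around active ones are acetylated. Some genes that define a cell type are flanked by long rows of active enhancers, called super-enhancers. These are usually ranked by the binding of a coactivator or by H3K27 acetylation. The antibody used here recognised acetylated H3 in general, and the lists hold peak positions and scores but no read signal. Whether the 686 regions are super-enhancers could therefore not be checked, and they are called clusters. H3K27me3 is the mark of Polycomb repression, and H3K9me3 is a mark of heterochromatin.

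The clusters spanned between 20027 and 105389 bases, with a median of 27896.5. They held 3 to 26 peaks with a median of 5, and 75 of them held the minimum of 3. GFP H3Ac peaks covered a median of 9673 bases per cluster, from 2576 to 58899, which was a median of 33.4% of the span. These values describe the GFP list that chose the clusters and carry no test. Near the limit of 20000 bases the rule separated groups of similar content. The 3 smallest clusters spanned 20027, 20028 and 20036 bases, and the 3 largest groups of 3 or more peaks left out spanned 19944, 19973 and 19984 bases. The 108 clusters under 22000 bases had a median Cre to GFP ratio of covered length of 0.574, and the 117 groups from 18000 to just under 20000 bases had 0.569. Peaks inside the clusters were wider than isolated distal peaks, with a median of 1591.5 bases against 1196, and their median score was 179.1 against 112.5. The score is the one the authors' peak caller gave. It was used here to order peaks within a list, and an alternative in the closing section set a minimum score of 100 in every list.

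Clusters were found on all 19 autosomes, from 14 on chromosome 18 to 61 on chromosome 2. The share of a chromosome's distal peaks that lay in clusters ranged from 11.8% on chromosome 18 (9.58 to 14.3) to 23.5% on chromosome 7 (21.1 to 26.0). The median gap between neighbouring clusters was 1.43e+06 bases, but 171 of the 686 had another cluster within 100000 bases. There were 12 runs of 3 or more clusters, each within 100000 bases of the next. The longest runs held 4 clusters each. One lay on chromosome 2 from 125088683 to 125378949 and held 26 peaks. Another, with 21 peaks, was on chromosome 10 from 92586411 to 92761667, and the last, with 20 peaks, on chromosome 11 from 45829425 to 46039235. Cre peaks covered 0.551, 0.425 and 0.545 times the GFP length of these runs. The clusters lay a median of 14165.5 bases from the nearest H3K4me3 peak, against 32831 for isolated distal peaks. This distance was part of the rule, and a long region reaches closer to its neighbours than a short one.

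The first question was how much of this acetylation was found again after Cre. Acetylation was present in the Cre list at nearly all clusters, but over less of their length. At least 1 Cre H3Ac peak lay in 668 of the 686 clusters, and none in 18, or 2.62% (1.56 to 4.12). Among all joined groups 40.3% had no Cre peak, most of which were isolated peaks with a single chance of a counterpart. Summed over the clusters, the covered length was 7.85 Mb in the GFP list and 4.74 Mb in the Cre list, or 60.3%. The same sum was 51.8% for smaller groups and 45.0% for isolated peaks, which have no gaps for Cre peaks to fill. Within the GFP peaks alone, Cre peaks covered 54.4% of the length in clusters, 47.7% in smaller groups and 45.0% in isolated peaks. The median Cre to GFP ratio of covered length was 0.563 per cluster (0.534 to 0.592, from order statistics), with the central 50% of clusters between 0.384 and 0.769. Cre peaks covered less than GFP peaks in 636 clusters, or 92.7% (90.5 to 94.5), where 92.2% of all joined groups did. They covered at most 50% of the GFP length in 286 clusters, or 41.7% (38.0 to 45.5), where 53.0% of all joined groups did. No cluster had 2 times the GFP length in the Cre list, and 0.00752% of all joined groups did. The count of clusters with less length in Cre was thus near that of all distal groups. An isolated region is as wide as its GFP peak, so that its ratio cannot pass 1, while the gaps within a cluster can be filled by Cre peaks.

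**Figure D1:**
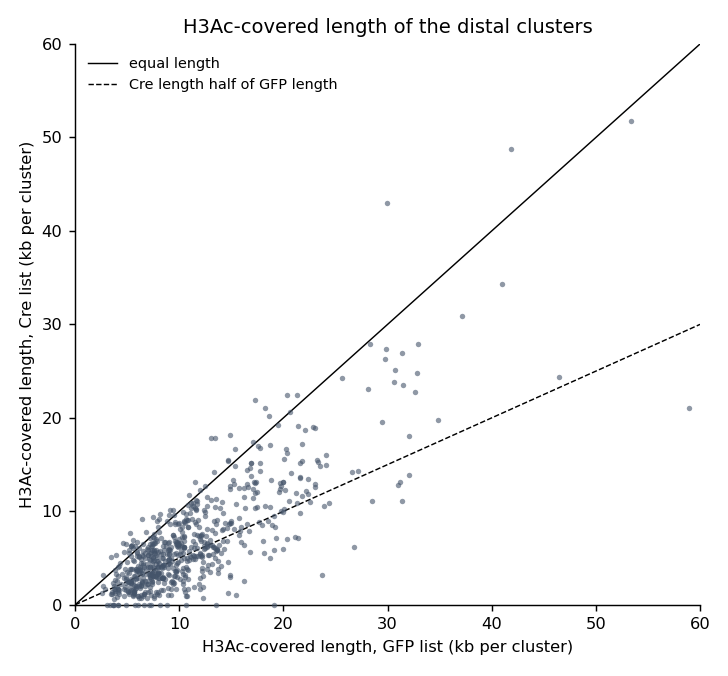
Each point is 1 of the 686 clusters, with the length covered by GFP H3Ac peaks (x axis, kb) and by Cre H3Ac peaks (y axis, kb). Lines mark equal length and a Cre length of 50%. Of the clusters, 636 lie under the line of equal length and 286 on or under the dashed line.

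The clusters were chosen on the GFP list, which favours length in that list, so the rule was also applied to the Cre list and to the merged peaks of both. The Cre list gave 392 clusters, with 4.30 Mb covered by GFP peaks and 3.92 Mb by Cre peaks. Even there the median Cre to GFP ratio was 0.944 (0.903 to 0.974), and 228 clusters, or 58.2% (53.1 to 63.1), had less length in Cre. The merged lists, which treat the conditions alike, gave 866 clusters with a median ratio of 0.639 (0.614 to 0.669). Of these, 82.6% (79.9 to 85.0) had less length in Cre, 282 had at most 50% of the GFP length and 10 had at least 2 times as much. The direction was thus the same whichever list defined the clusters, and the size was smallest for those taken from the Cre list. Fewer reads or a weaker immunoprecipitation in the Cre library would also shorten its list, and the depth behind these lists is unknown. Depth, other differences between the libraries and an effect of Cre infection cannot be told apart here.

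**Figure D2:**
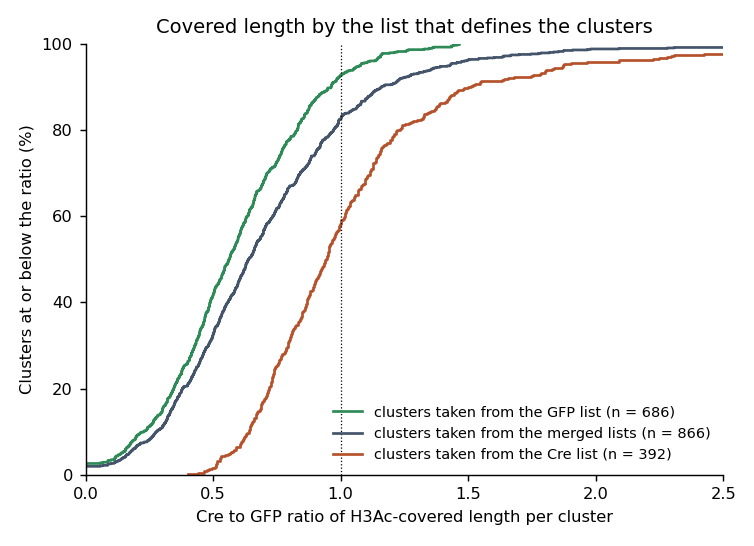
The x axis is the Cre to GFP ratio of H3Ac-covered length per cluster, and the y axis is the percentage of clusters at or below that ratio, for clusters taken from the GFP list, the Cre list or the merged lists. The curves cross a ratio of 1 at 92.7%, 58.2% and 82.6% of the clusters.

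The GFP clusters fell into 4 groups by what the Cre list held there. In 294 of them, 42.9% (39.1 to 46.7), the region overlapped a cluster of the Cre list. These had a median of 6 GFP peaks and a median ratio of covered length of 0.755. In 191 there were 3 or more Cre peaks but no Cre cluster, with a median ratio of 0.527. In 183 there were 1 or 2 Cre peaks, with a median ratio of 0.336, and in 18 there was none. In the other direction, 300 of the 392 Cre clusters, 76.5% (72.0 to 80.6), overlapped a GFP cluster. All but 1 of the remaining Cre clusters still held a GFP H3Ac peak. The widest Cre cluster without a GFP cluster lay on chromosome 12 from 72942564 to 73008527. It held 12 Cre peaks over 65964 bases, and GFP peaks covered 15854 bases of it against 19136 for Cre peaks. A region listed as a cluster in 1 condition only thus mostly still held H3Ac peaks in the other list. How near those peaks came to the size limit was not measured.

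The second question was which peaks of a cluster were found again. Of the 3976 peaks in clusters, 2416 or 60.8% (59.2 to 62.3) overlapped a Cre peak, where 53.1% of all distal peaks and 73.2% of all H3Ac peaks on these chromosomes did. For isolated distal peaks the share was 49.9% (48.9 to 50.9), and for smaller groups 53.0% (51.9 to 54.1). This share moved with the number of peaks in the joined group. It was 54.0% (52.0 to 55.9) in groups of 3 peaks of any span and 64.3% (61.6 to 67.0) in groups of 8 or more. In groups of that size the Cre peaks covered 65.7% of the GFP length.

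The higher share in clusters went along with higher peak scores, and at a like score it was not seen. All distal peaks were ordered by GFP score and parted at scores of 78.4, 126.8 and 249.8 into 4 bins of equal size. In the lowest bin, 24.9% of cluster peaks (21.8 to 28.2) and 25.7% of isolated peaks (24.0 to 27.4) overlapped a Cre peak. In the second bin the shares were 37.1% (33.6 to 40.6) and 39.2% (37.3 to 41.1), and in the third 60.8% (57.6 to 63.9) and 61.7% (59.7 to 63.7). In the highest bin they were 89.1% (87.4 to 90.6) and 87.2% (85.6 to 88.8). The intervals overlapped in every bin. Peaks near H3K4me3 stood apart in the same score bins. In the lowest bin 49.9% of them (47.9 to 51.9) overlapped a Cre peak, and in the highest bin 99.3% (99.1 to 99.4). Over all scores 89.5% of the 26500 peaks near H3K4me3 did. Their median score was 513.1, against 126.8 for all distal peaks. The highest bin has no upper bound, so that scores there are not matched between these classes.

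**Figure D3:**
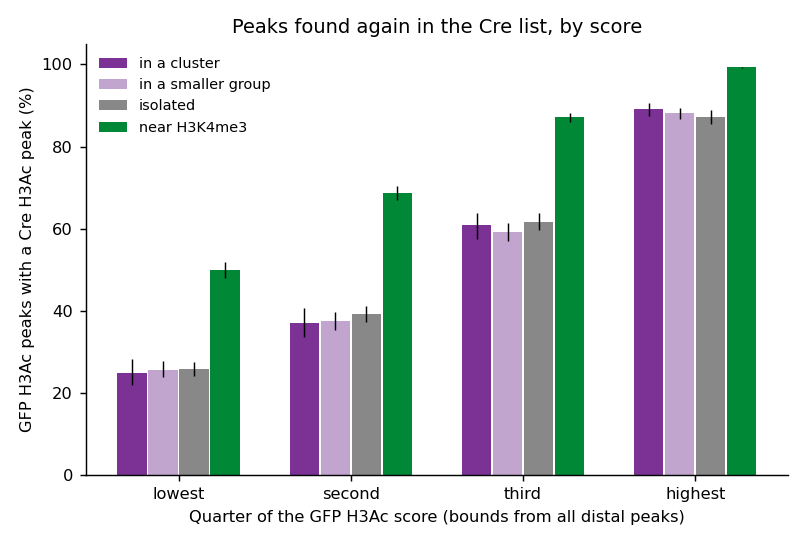
Bars give the percentage of GFP H3Ac peaks that overlap a Cre H3Ac peak (y axis) in 4 bins of the GFP score (x axis), for peaks in clusters, in smaller groups, isolated, or within 5000 bases of H3K4me3. Error bars are exact 95% binomial intervals. Clustered and isolated peaks stand level in each bin, from about 25% to 89% for clusters, and peaks near H3K4me3 are higher in each.

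Within a cluster, the strongest peak was the one most often found again. The highest-scoring peak of each cluster overlapped a Cre peak in 620 of 686 cases, or 90.4% (87.9 to 92.5). The share was 75.7% (72.3 to 78.8) for the second peak by score, 60.8% (57.0 to 64.5) for the third and 30.9% (27.5 to 34.5) for the lowest. A rise with score is not particular to clusters. Among isolated peaks the share went from 25.7% in the lowest score bin to 87.2% in the highest. By position, 59.4% of the outermost peaks (56.7 to 62.0) and 61.5% of the inner peaks (59.6 to 63.4) overlapped a Cre peak, and these intervals overlap. All peaks were found again in 84 clusters, or 12.2% (9.89 to 14.9), and at least 50% but not all in 414. In 168 clusters fewer than 50% but at least 1 were found, and in 20 clusters none. The same split was not made for smaller groups, so these counts only describe the clusters. The clusters with the strongest leading peak also kept the most length. Among the 172 clusters whose best GFP score was at least 1127 the median ratio was 0.661 (0.601 to 0.707), and among the 172 with a best score of at most 378.5 it was 0.446 (0.380 to 0.492).

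**Figure D4:**
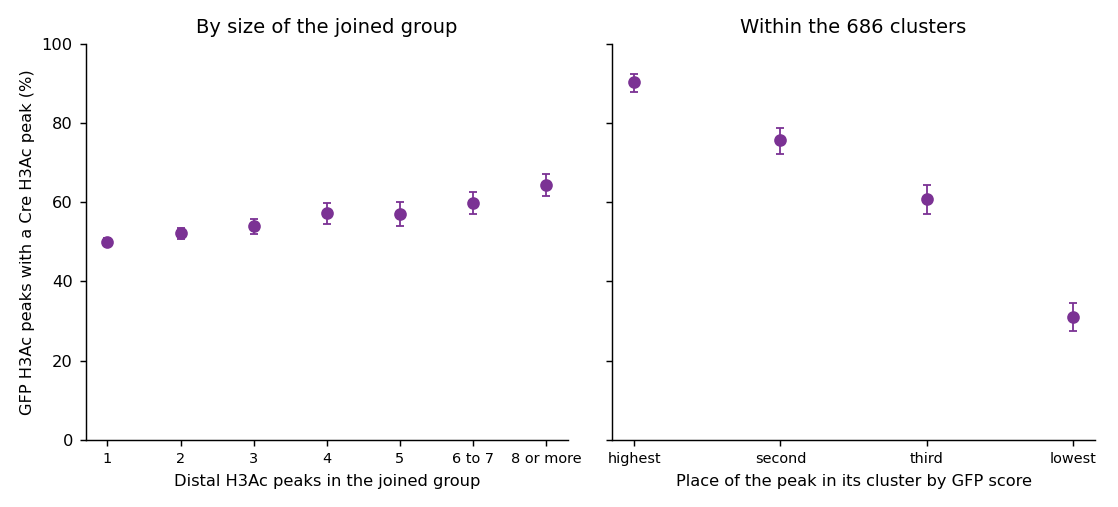
The y axis of both panels is the percentage of GFP H3Ac peaks that overlap a Cre H3Ac peak, with exact 95% intervals. The left panel goes by the number of distal peaks in the joined group, from 49.9% for isolated peaks to 64.3% for groups of 8 or more. The right panel goes by the place of a peak in its cluster, from 90.4% for the highest score to 30.9% for the lowest (in clusters of 3 the third peak is also the lowest).

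The missing length was made up of peaks without a Cre counterpart and of peaks that Cre peaks covered only in part. Peaks with no Cre counterpart held 2.08 Mb, or 26.6%, of the 7.85 Mb within cluster peaks. In the peaks that had one, Cre peaks covered 74.0% of the GFP length, with a median of 79.3% per peak. For isolated peaks 41.1% of the length lay in peaks without a counterpart, and Cre peaks covered 76.4% of the rest. Near H3K4me3 these values were 5.66% and 88.9%. The Cre peaks inside the clusters were also looked at. They covered 4.74 Mb of the spans, and 4.27 Mb of this lay within the GFP cluster peaks. Of the 2728 Cre H3Ac peaks in the cluster spans 136, or 4.99%, had no GFP counterpart, and these lay in 107 clusters. Their median Cre score was 78.8, against 162.1 for Cre peaks that did have one. Among all distal Cre peaks 24.95% had no GFP counterpart. Cluster spans are by their choice rich in GFP peaks, which by itself lowers the share without a counterpart. The 2 shares were therefore not compared further.

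Scores do not compare between lists, but ranks over the same regions do. Over all distal GFP peaks with a Cre counterpart, the 2416 in clusters had a median rank at the 65.1 percentile in the GFP list and the 60.9 percentile in the Cre list. The median change was -1.37 percentile points (-2.15 to -0.739), and 45.3% of these peaks ranked higher in the Cre list (43.3 to 47.3). Isolated peaks moved by 1.94 points (1.26 to 2.74). Ranks moved towards the middle in both classes. In the lowest 25% of GFP ranks cluster peaks changed by 15.9 points and isolated ones by 17.2, and in the highest 25% by -3.39 (-4.39 to -2.70) and -8.52 (-10.5 to -7.14). In the clusters taken from the Cre list the change of member peaks had the opposite sign, 0.831 (0.262 to 1.53), so that its direction depended on the list that chose the clusters.

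The widest and the densest clusters differed from each other in what the Cre list held. The widest lay on chromosome 11 from 76096927 to 76202315, with 18 GFP peaks over 105389 bases. There 17 GFP peaks had a Cre counterpart, the Cre list held 22 peaks, and the covered length was 41894 bases in GFP and 48737 in Cre, a ratio of 1.16. Its strongest GFP peak, from 76122489 to 76128461, scored 2036, and the Cre peak over it, from 76122062 to 76128290, scored 1674. The second, on chromosome 3 from 141942090 to 142045417, held the most peaks of all, 26, and the greatest GFP length, 58899 bases. Here 12 of the 26 peaks overlapped a Cre peak, and the Cre length was 21080 bases, a ratio of 0.358. The strongest GFP peak of that cluster scored 1346 and spanned 5347 bases from 142035606 to 142040952, where the Cre list held 1 peak of 1161 bases with a score of 104.4. The 2 clusters were thus of like span, and the Cre list covered more bases than the GFP list in the first and fewer in the second.

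The third by span lay on chromosome 11 from 87920214 to 88010777, with 16 peaks in each list and a ratio of 0.884. The fourth, on chromosome 5 from 66887376 to 66977850, held 18 distal GFP peaks and had a ratio of 0.567. It was the only cluster with an H3K4me3 peak inside its span, 840 bases of Cre H3K4me3. These lay wholly within both a Cre H3Ac peak and a GFP H3Ac peak that scored 2877 and spanned 7037 bases (66932338 to 66939374). That GFP peak and 1 other in the span were near H3K4me3 and so no members, but they count in the covered length. Over the distal peaks of either list alone the ratio was 0.535, with 26931 bases in GFP and 14412 in Cre. The fifth, on chromosome 15 from 61884621 to 61972555, had 13 peaks and a ratio of 0.630. Among the clusters with the most peaks was also one of 20 peaks on chromosome 17 (26709850 to 26788430), with a ratio of 0.525. Another, of 17 peaks, had a ratio of 0.916 on chromosome 9 (63764654 to 63849951). The most densely covered of the long clusters lay on chromosome 4 from 138777051 to 138845114. GFP peaks covered 78.4% and Cre peaks 76.0% of its 68064 bases, and its first peak alone spanned 22153 bases in the GFP list and 22007 in the Cre list. One on chromosome 14 from 26291164 to 26355194 was covered to 64.0% in GFP and 53.5% in Cre.

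The clusters at the ends of the range were named by rule. The 5 with the lowest ratio are the 5 with the greatest GFP length among the 18 without a Cre peak. The first lay on chromosome 12 from 16914969 to 16943927 and held 6 GFP peaks over 28959 bases. Its peaks scored 582.0, 87.3, 1902, 86.8, 331.6 and 66.9 from left to right, and the middle one spanned 8618 bases. No Cre H3Ac peak overlapped any of them, although the Cre list had a counterpart for 89.1% of cluster peaks in the highest score bin, which starts at 249.8. The second, on chromosome 17 from 75636128 to 75658646, also held 6 peaks, with scores from 71.2 to 735.1 and 13541 covered bases. The others had 10623 GFP bases on chromosome 13 (105236447 to 105267358), 8822 on chromosome 6 (140823287 to 140846372) and 8143 on chromosome 19 (32244195 to 32273247). No H3K27me3 or H3K9me3 peak of either library lay in these 5 clusters. A missing peak means that the Cre list held none past the authors' threshold, not that acetylation was absent.

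Clusters with more Cre than GFP length numbered 50 of 686. Among smaller groups 213 of 3390 had more, and among all joined groups 263 of 13293, of which the 9217 isolated peaks cannot have more. Among the clusters the ratio was highest on chromosome 11 from 101690505 to 101711448, 1.47, with 3457 bases in GFP and 5068 in Cre. Next came ratios of 1.46 on chromosome 4 (132604098 to 132627176), 1.44 on chromosome 2 (163500139 to 163523825), and 1.43 on both chromosome 8 (87221985 to 87285277) and chromosome 12 (87188073 to 87211343). Of these the one on chromosome 8 was the longest. Its 63293 bases held 11 GFP peaks covering 29929 bases and 15 Cre peaks covering 42941. The additional Cre length lay between and beside GFP peaks: 10 of its 11 GFP peaks had a Cre counterpart, and the strongest, with a GFP score of 2245, lay under the strongest Cre peak, with 1664.

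**Figure D5:**
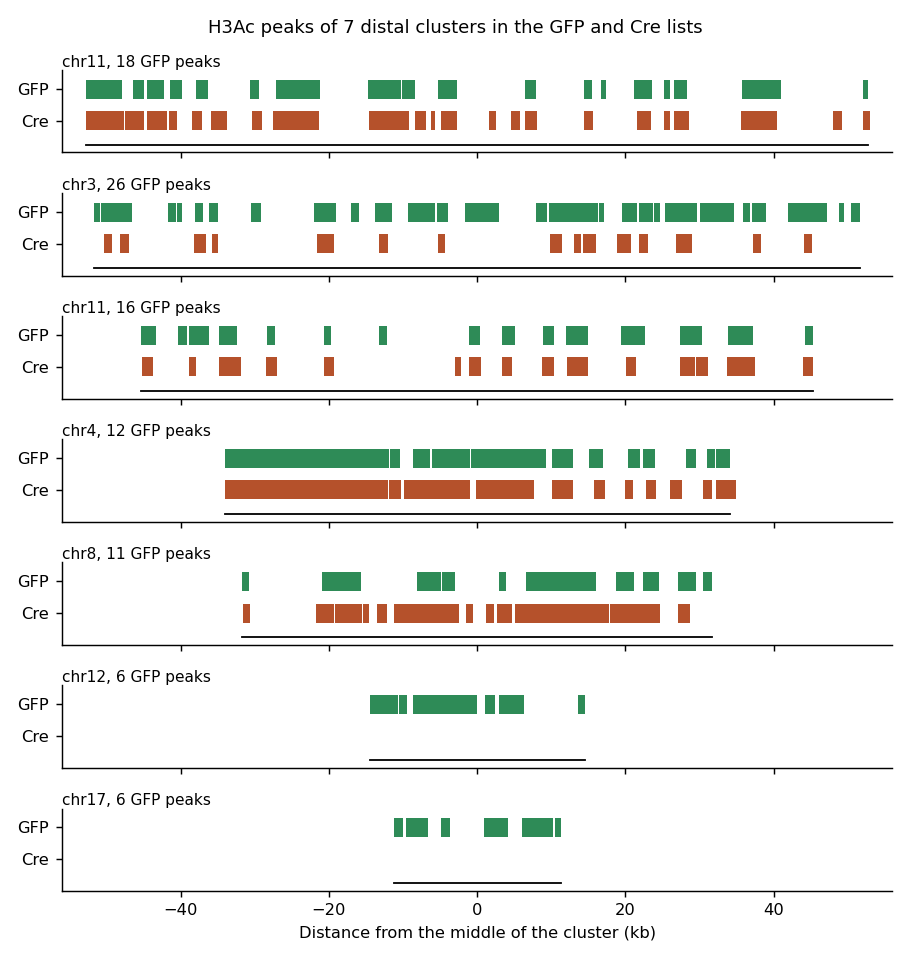
H3Ac peaks of the GFP list (green) and the Cre list (orange) in 7 clusters, by distance from the middle of the cluster in kb. Black lines mark the span. From the top they are the 3 widest clusters, the one on chromosome 4 with the second greatest GFP length, the longest of those with the highest Cre to GFP ratio, on chromosome 8, and the first 2 of those without a Cre peak.

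The ratio of covered length was below 1 on every chromosome. The median per chromosome ranged from 0.456 on chromosome 3 to 0.749 on chromosome 19, which held 41 and 19 clusters. It was also lower for clusters farther from H3K4me3. The 172 clusters within 7866 bases of an H3K4me3 peak had a median of 0.606, and the 172 that lay 39679 bases or more away had 0.493. Acetylation near H3K4me3 differed less between the lists than distal acetylation did. Peaks within 5000 bases of H3K4me3 covered 54.8 Mb in the GFP and 52.3 Mb in the Cre list, a ratio of 0.954, and distal peaks covered 33.3 and 22.2 Mb, a ratio of 0.666. The median score was 513.1 near H3K4me3 and 126.8 for distal peaks of the GFP list. In the third score bin 87.2% of peaks near H3K4me3 overlapped a Cre peak, against 60.8% of cluster peaks and 61.7% of isolated peaks. Whether score accounts for the difference in covered length was not tested. In bulk cells, fewer cells with a mark and less of the mark per cell cannot be told apart.

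The last question was which silent marks lay in the clusters, since these were not used to choose them. The acetylated peaks of clusters and the H3K27me3 peaks lay almost wholly apart. H3K27me3 overlapped 1 of the 3976 peaks in the GFP library, or 0.0252% (0.000637 to 0.140), and 0 of 3976 in the Cre library, where the upper end of the interval is 0.0927%. Among all distal peaks the shares were 0.603% and 0.649%. Isolated distal peaks, which are narrower, overlapped H3K27me3 in 101 of 9217 cases in the GFP library, 1.10% (0.893 to 1.33), and in 109 cases in the Cre library, 1.18% (0.972 to 1.42). The intervals of clustered and isolated peaks did not overlap in either library. Peaks of smaller groups lay between them, with 27 of 8211 in the GFP library, 0.329% (0.217 to 0.478), and 30 in the Cre library, 0.365% (0.247 to 0.521). Between the classes the score differed too. In the highest score bin 3 of 1709 isolated peaks and 0 of 1548 cluster peaks overlapped GFP H3K27me3, and there the intervals overlap. In the lowest bin 41 of 2635 isolated peaks did, 1.56% (1.12 to 2.10), and 0 of 719 cluster peaks, with an upper limit of 0.512%. The single cluster peak with H3K27me3 lay on chromosome 11 from 75385797 to 75387802, shared 547 bases with it and was found again in the Cre list.

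Over the whole span, gaps included, 5 of the 686 clusters held any H3K27me3 in the GFP library, 0.729% (0.237 to 1.69), and 1 in the Cre library, 0.146% (0.00369 to 0.809). Among all joined groups, most of which are far shorter, the shares were 1.14% and 1.12%. Per kb of span H3K27me3 covered 0.347 bases in clusters and 4.00 in isolated peaks in the GFP library, against 26.7 over chromosomes 1 to 19 as a whole. In the Cre library these values were 0.101, 4.08 and 24.7. The cluster with H3K27me3 in both libraries lay on chromosome 11 from 68258724 to 68281993, with 3013 bases in GFP and 2228 in Cre. Of its 3 acetylated peaks 1 had a Cre counterpart. In the 4 other clusters H3K27me3 was listed in GFP only. Of these, the one on chromosome 14 from 23395795 to 23418069 had 1733 bases of it and an H3Ac ratio of 1.36. The cluster on chromosome 17 from 68325177 to 68346114 had 1439 bases of H3K27me3 and an H3Ac ratio of 1.16. The remaining ones, with 924 and 547 bases, were both on chromosome 11 (69065857 to 69090147, and 75362970 to 75387802).

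The flanks of the clusters were looked at in the same way. In the GFP library 26.97% of clusters (23.7 to 30.5) had an H3K27me3 peak within 50000 bases, against 38.0% of isolated peaks (37.0 to 39.0) and 36.7% of all joined groups. In the Cre library the shares were 21.1% (18.1 to 24.4), 34.1% (33.1 to 35.1) and 32.2%. A cluster is longer than an isolated peak and so reaches over a longer stretch. The clusters also lay nearer to H3K4me3, at a median of 14165.5 bases against 32831 for isolated peaks. Whether length or this distance bears on the shares was not tested.

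For H3K9me3 the numbers were small. It lay in 10 clusters in the GFP library, 1.46% (0.701 to 2.66), and in 5 in the Cre library, 0.729% (0.237 to 1.69), where 0.203% and 0.128% of all joined groups held it. These clusters are longer than the other groups. On the acetylated peaks themselves it overlapped 1 of 3976 in each library, as against 3 and 1 of the 9217 isolated peaks. Per kb of cluster span it covered 0.458 bases in GFP and 0.179 in Cre, against 5.46 and 1.88 over the chromosomes. In smaller groups these values were 0.401 and 0.320, and in isolated peaks 0.234 and 0.0968. The greatest H3K9me3 length was 1614 bases in the GFP library, on chromosome 17 from 29049106 to 29081890, in a cluster of 4 peaks with an H3Ac ratio of 0.359. On chromosome 16 from 37794326 to 37817072 it was 1195 bases. The cluster on chromosome 5 from 66887376 to 66977850, named above for its H3K4me3 peak, had 1066 bases in GFP only. The cluster on chromosome 3 from 79701634 to 79753265, with 12 peaks, had 1030 bases of H3K9me3 in the Cre library only, and its H3Ac ratio was 0.230. Another, on chromosome 12 from 70519566 to 70553355, had 961 bases in GFP only, and all 5 of its acetylated peaks were found again in the Cre list.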

How the data were processed

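The series holds 18 samples, of which 8, histone libraries with 1 deposited peak list each, were used. The other 10, of RNA, Rb and input, were not used here. Groups came from the sample titles. Per the submitters' processing notes the build is NCBIM37, and the tools include MACS 1.4.1, BWA, bedtools 2.16.2 and SAMtools 0.1.18. The notes give no roles. The lists hold chromosome, start, end, a MACS peak name and a score. The score is deposited without header or unit. It depends on depth and control library, which are not given in the sources used here. It therefore served to order peaks inside 1 list, apart from the alternative with a minimum score of 100 in every list. Where scores of both lists are printed for a region, they are not on a common scale.

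Starts were raised by 1 base for printing. Overlap means at least 1 shared base. Covered length is the union of peaks within a span. Shares carry Clopper-Pearson intervals and medians carry order-statistic intervals. The rule for named regions takes the 5 widest clusters, the 5 with the most peaks, the greatest GFP length, the lowest and the highest ratio, the most H3K27me3 and the most H3K9me3. Members, lists and comparisons were chosen with earlier results of these data known. The cluster runs, the Cre clusters named, the score bins near H3K4me3 and the peak-level marks were chosen after values were seen. Genes, motifs and sequences are not given, because the reference tables at hand are on another build (GRCm38.p6) and coordinates were not converted. For the same reason the fibroblast label was not checked against marker genes. Code was tested on simulated data. Python 3.11.15, NumPy 2.4.6, pandas 2.3.3, SciPy 1.17.1 and matplotlib 3.10.9 were used. The closing section gives the effect of 12 alternatives.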

Additional observations from a re-analysis of the deposited data

How the results depend on the processing

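Of 90 values recomputed under 12 alternatives, 46 stayed within their interval (counts within 1.5 times), 43 moved and 1 changed sign. The number of clusters, 686, was 445 at a score of at least 100, 103 and 1322 with joining gaps of 5000 and 20000 bases, 446 with at least 5 peaks, 133 with at least 40000 bases and 392 from the Cre list. The share of clusters with less length in Cre was 58.2% from the Cre list and 82.6% from the merged lists. The median ratio, 0.563, was 0.600 with equal numbers of top-scoring peaks, 0.613 with gaps of 5000 bases, 0.628 with at least 40000 bases, 0.944 from the Cre list and 0.639 from the merged lists, below 1 under each of the 11 alternatives that gave it a value. The share of cluster peaks found again, 60.8%, was 52.7% with 50% overlap, 66.8% with equal numbers, 63.7% and 58.6% with gaps of 5000 and 20000 bases, 65.2% with at least 40000 bases, 63.8% with peaks merged within 1000 bases and 54.0% from the merged lists. Of isolated peaks, 49.9%, it was 45.5% with 50% overlap, 57.3% with equal numbers, 51.0% with gaps of 5000 bases, 51.2% with merging and 39.6% from the merged lists. From the Cre list, 85.0% of cluster peaks and 69.6% of isolated peaks had a GFP counterpart. Clustered peaks had the higher share under each of the 10 alternatives that gave both shares.

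The share of clusters with H3K27me3 in the GFP library, 0.729%, was 0% with 50% overlap, with gaps of 5000 bases and with at least 40000 bases, 3.71% with gaps of 20000 bases, 2.04% from the Cre list and 1.85% from the merged lists. In the Cre library, 0.146%, it was 0% at a score of at least 100, with 50% overlap, with equal numbers, with gaps of 5000 bases, with at least 5 peaks and with at least 40000 bases, 2.19% with gaps of 20000 bases, 1.28% from the Cre list and 0.924% from the merged lists. The setting of 50% overlap asked for H3K27me3 over at least 50% of an acetylated peak of the cluster, not anywhere in its span. Its 0% in either library is thus another measure and does not test the shares over the span. The median rank change of cluster peaks, -1.37, was 0.831 from the Cre list and -0.691 from the merged lists. The cause was not tested. No paired analysis was possible because each mark has 1 library per condition, all labelled replicate 3. Leaving out a replicate was not possible for the same reason, and motif content was not run. The histone inputs are labelled unlike the marks: the GFP input is replicate 1 and the Cre input replicate 3. Whether peak calling used these inputs is unknown. An effect of the unlike labels on the differences between GFP and Cre was not tested. Read depth is unknown, so that a missing peak cannot be told from a peak under the threshold.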

Other observations

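The clusters above are on the autosomes. By the same rule chromosome X held 3 clusters in the GFP list and 0 in the Cre list, from 140 and 89 distal H3Ac peaks, a number of clusters too small to set apart from 0. Each of the 3 had less H3Ac-covered length in Cre. On chromosome X from 73064270 to 73089109 it was 6671 bases in GFP and 1454 in Cre, and the H3K27me3-covered length of the same span was 724 bases in GFP and 11559 in Cre. From 93303253 to 93333481 H3Ac covered 13219 and 3474 bases, and H3K27me3 0 and 3240. From 92127356 to 92148106 H3Ac covered 11065 and 1257 bases, with no H3K27me3 in either library. On the autosomes 1 of the 686 clusters held H3K27me3 in the Cre library. The whole H3K27me3 lists also differed in this way. Of all 36059 GFP H3K27me3 peaks 34064 lay on chromosomes 1 to 19, and of all 36381 Cre peaks 29328 did. More of the Cre list thus lay on other chromosomes, so that the H3K27me3 difference cannot be called particular to these clusters. Its cause was not tested. Chromosome Y held no distal H3Ac peak in either list.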
